A study of Mus musculus with 19 samples.

Results

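Distal intergenic peaks of 5-hydroxymethylcytosine (5-hmC) are described here, in purified mouse cardiomyocytes (CMCs). A peak was taken as distal when its centre lay outside every annotated transcript and more than 100 kb from every transcription start site (TSS) of a protein-coding gene on the mm10 autosomes. Of 989991 autosomal peaks in 8 lists, 121198 met this rule, and the lists held 1000847 peaks on all chromosomes. DNA of CMCs from C57BL/6J mice was precipitated with a 5-hmC antibody and sequenced (hMeDIP), and 1 peak list was deposited for each of 2 biological replicates at 4 points. The points were embryos at E14.5, pups aged 1 to 2 days (neonatal), mice aged 2 months (adult) and adult mice examined 1 week after surgery for transverse aortic constriction (TAC), in which a constricted aorta puts the left ventricle under pressure. No genotype other than the strain is given for any point. Embryonic and neonatal CMCs came from digested ventricles with repeated plating to remove other cells, and adult and TAC CMCs from perfused left ventricles with sedimentation, so that age and method of isolation cannot be told apart. The labels do not say whether the adult mice had sham surgery or how many animals made up a replicate. The lists give positions without tag numbers, so the depth of each sample is unknown here.

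5-hmC is made from 5-methylcytosine by TET enzymes and is an intermediate of DNA demethylation. It accumulates over the gene bodies of active genes and at enhancers. Sequence far from any TSS includes gene deserts, long stretches without genes that often lie beside developmental regulators and neural adhesion genes and that can hold long-range enhancers.

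Distal sequence made up 651 Mb, or 27.2% of the known bases of the autosomes, in 4974 stretches. It was poor in CpG, with 0.608 per 100 bp against 0.851 on all autosomes, and 39.3% of it was soft-masked repeat sequence against 33.5%. The CMC marker genes gave the check of cell type that these lists allow. In each list 7 of 8 CMC genes held a peak, against 2 to 4 of 7 fibroblast genes and 5 to 6 of 6 endothelial genes. The 3 sets span 1930, 181 and 541 kb in that order, and a longer gene is more likely to hold a peak, so these counts are not set for length. Peaks mark DNA and not expression.

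A total of 329 distal regions, each made by joining overlapping peaks, were found in all 8 lists. The 5 of them with the widest stretch common to all lists are printed as 300 bases of the GRCm38 reference (mm10), plus strand, to show what distal sequence carried 5-hmC peaks at every point. Capitals mark CpG, the main site of 5-hmC.
chr3:156433614-156433913, 128 kb from a TSS of *Negr1*, 1 CpG: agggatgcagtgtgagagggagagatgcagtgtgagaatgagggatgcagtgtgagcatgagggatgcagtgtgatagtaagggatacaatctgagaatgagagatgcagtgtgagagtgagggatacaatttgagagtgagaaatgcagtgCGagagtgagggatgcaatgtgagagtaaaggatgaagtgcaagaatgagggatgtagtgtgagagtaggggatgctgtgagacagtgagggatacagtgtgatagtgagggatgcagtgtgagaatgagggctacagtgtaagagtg
chr12:70687327-70687626, 138 kb from *Frmd6*, 8 CpGs: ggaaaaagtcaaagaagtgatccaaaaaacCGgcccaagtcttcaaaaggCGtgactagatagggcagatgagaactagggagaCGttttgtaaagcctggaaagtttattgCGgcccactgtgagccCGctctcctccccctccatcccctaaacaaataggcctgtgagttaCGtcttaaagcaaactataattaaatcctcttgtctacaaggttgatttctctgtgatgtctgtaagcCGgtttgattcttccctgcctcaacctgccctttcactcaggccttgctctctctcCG
chr8:80188447-80188746, 131 kb from *Hhip*, 0 CpGs: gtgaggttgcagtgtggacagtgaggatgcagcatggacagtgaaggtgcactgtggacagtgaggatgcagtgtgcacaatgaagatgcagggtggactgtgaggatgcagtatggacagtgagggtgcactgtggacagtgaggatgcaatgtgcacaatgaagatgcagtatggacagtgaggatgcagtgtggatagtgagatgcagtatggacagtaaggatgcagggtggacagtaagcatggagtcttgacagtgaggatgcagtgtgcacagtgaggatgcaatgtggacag
chr5:111552747-111553046, 136 kb from *Mn1*, 0 CpGs: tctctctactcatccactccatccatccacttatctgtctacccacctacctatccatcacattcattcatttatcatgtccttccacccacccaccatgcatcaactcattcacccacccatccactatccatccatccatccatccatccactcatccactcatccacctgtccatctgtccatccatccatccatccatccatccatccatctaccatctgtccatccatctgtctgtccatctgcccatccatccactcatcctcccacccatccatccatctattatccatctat
chr11:45532340-45532639, 319 kb from *Clint1*, 2 CpGs: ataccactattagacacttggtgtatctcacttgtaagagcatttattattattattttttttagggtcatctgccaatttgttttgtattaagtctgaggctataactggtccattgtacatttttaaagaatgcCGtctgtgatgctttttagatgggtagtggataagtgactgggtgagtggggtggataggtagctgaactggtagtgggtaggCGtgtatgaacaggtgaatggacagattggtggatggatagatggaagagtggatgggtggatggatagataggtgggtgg
The first and the third are tandem repeats with a unit of 20 bp: shifted by 20 bp, 75.1% and 76.1% of the bases in a window of fixed width around the centre matched the window itself. The fourth matched itself at 58.1% with a shift of 4 bp, and the other two at 31.4% and 41.9%.

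Another 2 regions, chosen after their values were seen, stand for regions that differed between points, again with CpG in capitals. The first was found in all 4 E14.5 and neonatal lists and in no adult or TAC list, as were 857 distal regions, and is the widest of these by its common stretch. The second was found in both adult lists and in TAC replicate 1 but in no E14.5 or neonatal list, as were 73.
chr8:35183468-35183767, 192 kb from *Ppp1r3b*, 9 CpGs: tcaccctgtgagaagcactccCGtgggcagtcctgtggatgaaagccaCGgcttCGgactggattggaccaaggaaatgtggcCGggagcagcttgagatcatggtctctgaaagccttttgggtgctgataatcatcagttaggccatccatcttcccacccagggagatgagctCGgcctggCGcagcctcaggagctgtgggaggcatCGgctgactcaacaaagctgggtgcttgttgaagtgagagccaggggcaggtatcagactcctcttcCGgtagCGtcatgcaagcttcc
chr7:73037598-73037897, 338 kb from *Rgma*, 8 CpGs: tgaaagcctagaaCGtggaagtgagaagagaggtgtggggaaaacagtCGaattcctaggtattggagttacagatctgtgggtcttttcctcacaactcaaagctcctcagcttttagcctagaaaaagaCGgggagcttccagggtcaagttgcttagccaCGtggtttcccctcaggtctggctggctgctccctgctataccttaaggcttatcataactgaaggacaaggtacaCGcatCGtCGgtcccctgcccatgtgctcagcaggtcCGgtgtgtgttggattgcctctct
Neither matched itself at more than 31.4% at any shift of 2 to 100 bp.

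The question addressed first was how many peaks lay far from genes at each point. The adult lists held the fewest distal peaks and TAC was divided between its replicates. Distal peaks numbered 18631 and 21914 among E14.5 lists, 18705 and 20732 among neonatal, 8038 and 9158 among adult and 8588 and 15432 among TAC lists. As a share of autosomal peaks these were 14.3% and 16.0% among E14.5 lists, 13.9% and 13.7% among neonatal, 7.75% and 7.58% among adult and 8.22% and 14.4% among TAC lists. The mean share was 15.1% ± 1.195 (SD, n = 2) for E14.5 CMCs, 13.8% ± 0.115 (SD, n = 2) for the neonatal, 7.66% ± 0.118 (SD, n = 2) for the adult and 11.3% ± 4.38 (SD, n = 2) after TAC. Both adult lists lay below all E14.5 and neonatal lists, TAC replicate 1 lay 0.556 percentage points above the adult mean, and TAC replicate 2 lay within the range of the E14.5 and neonatal lists. An exact permutation test, one-sided for a larger spread between points, over the 105 ways to divide 8 samples into pairs gave p = 0.143 (adjusted p = 0.314 over 9 measures). Without TAC replicate 2 the same exact test gave p = 0.00952, the smallest that its divisions allow, and without any other single list it gave 0.0667 to 0.267. Peaks on the endothelial genes also moved with the points: there were 0.998 to 1.28 per 10 kb in E14.5 and neonatal lists and 0.629 to 0.943 in adult and TAC lists, without overlap. On the CMC genes there were 1.17 to 2.33 and 1.30 to 2.02, and on the fibroblast genes 0.331 to 0.496 and 0.110 to 0.331. The part of other cell types in the distal share was not tested.

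**Figure D1:**
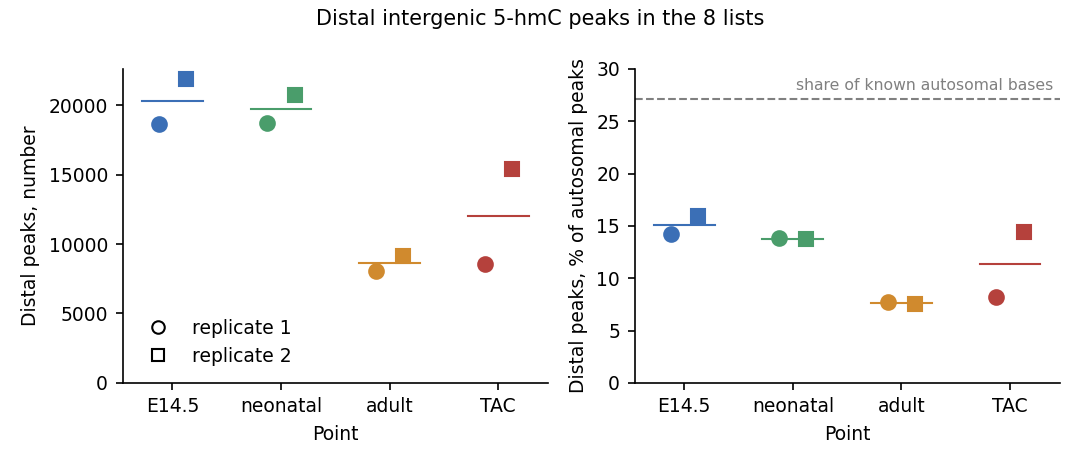
Number of distal peaks (left) and their share of autosomal peaks in % (right) in each list, with circles for replicate 1, squares for replicate 2 and a line at the mean of both. The adult lists sit at 7.75% and 7.58% and the E14.5 and neonatal lists at 13.7% to 16.0%, all below the dashed 27.2%, the share that distal sequence has of the known bases.

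The density of distal peaks showed the same order against the rest of the autosomes. Distal peaks per Mb over other peaks per Mb gave a ratio of 0.446 and 0.509 among E14.5 lists, 0.431 and 0.426 among neonatal, 0.225 and 0.220 among adult and 0.240 and 0.451 among TAC lists (exact permutation test, p = 0.152). The headers of the lists differ in which library was scaled before peaks were called. Among the 4 lists whose control was scaled, adult replicate 1 had a lower share than neonatal replicate 1 (7.75% against 13.9%), and among the 4 whose precipitated library was scaled, adult replicate 2 had a lower share than neonatal replicate 2 (7.58% against 13.7%). Both TAC lists are of the second kind and both E14.5 lists of the first.

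Within intergenic sequence, the difference between the points widened with distance from a TSS. Densities are given as peaks per Mb of intergenic sequence per 100000 peaks of the list, which sets aside the total number of peaks. Within 10 kb of a TSS the density was 40.3 ± 0.791 (SD, n = 2) for E14.5 CMCs, and for adult CMCs it was 37.9 ± 0.352 (SD, n = 2), a ratio of adult to E14.5 of 0.940. This ratio was 0.623 at 100 to 200 kb, 0.498 at 200 to 500 kb, 0.326 at 500 to 1000 kb and 0.254 beyond 1000 kb. Beyond 1000 kb, the density was 12.02 and 12.5 among E14.5 lists, 12.8 and 11.1 among neonatal, 3.78 and 2.45 among adult and 4.48 and 12.6 among TAC lists. The adult lists and TAC replicate 1 lay far below the other lists there, and the groups of E14.5 and neonatal lists overlapped. In the 4 bins beyond 100 kb the ratio of neonatal to E14.5 lay between 0.899 and 0.978. No bin passed the exact permutation test over the points (p from 0.0857 to 0.419, adjusted p at least 0.2 over 7 bins). With both TAC lists left out, 15 divisions remained, and 4 bins between 10 and 500 kb reached their smallest p of 0.0667.

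**Figure D2:**
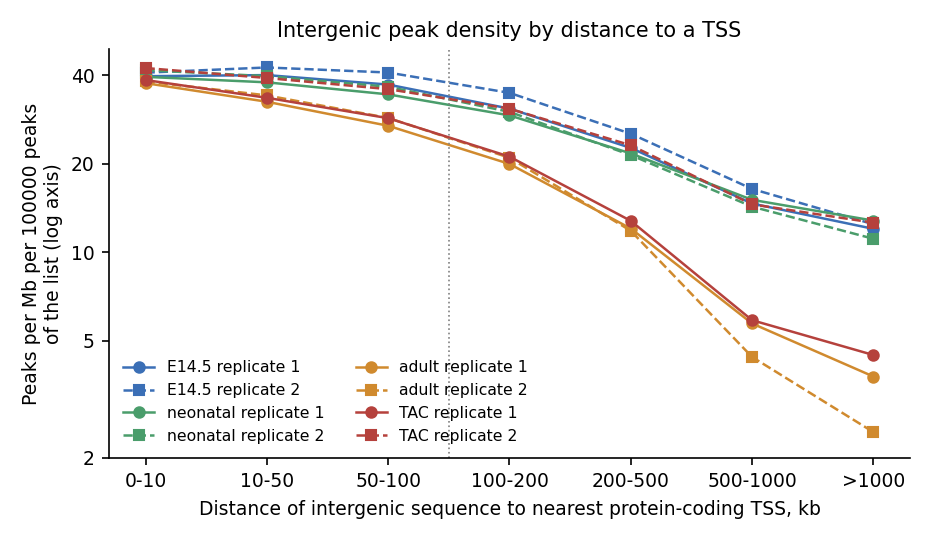
Intergenic peaks per Mb per 100000 peaks of the list (log axis) by distance to the nearest protein-coding TSS in kb, with the dotted line at 100 kb, 1 line per list, solid for replicate 1 and dashed for replicate 2. The lists lie together within 10 kb of a TSS and part with distance: beyond 1000 kb the adult lists are at 3.78 and 2.45 and the E14.5 lists at 12.02 and 12.5.

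The median distance of distal peaks to a protein-coding TSS was 247 and 245 kb among E14.5 lists, 254 and 245 kb among neonatal, 211 and 199 kb among adult and 211 and 250 kb among TAC lists (exact permutation test, p = 0.210). Distal peaks were also counted near the TSSs of non-coding genes, within 10 kb of which lay 6.42% of distal sequence. These held 9.43% and 9.76% of distal peaks among E14.5 lists, 9.30% and 9.99% among neonatal, 12.1% and 13.2% among adult and 12.2% and 9.34% among TAC lists (exact permutation test, p = 0.267). All 8 lists were above the share of the sequence.

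Before replicates were compared, the libraries were compared with each other, since 2 features of the lists bear on any overlap. First, distal peaks of TAC replicate 2 lay beside those of the other lists and not on them. In its 7 pairs with another list, the commonest distance between centres was 500 to 600 bp, and such distances were 4.61 to 11.6 times as frequent as distances below 100 bp. In the other 21 pairs the commonest distance was below 100 bp and the ratio was 0.0131 to 0.105. Second, lists with the same replicate number overlapped across points. Of the distal peaks of E14.5 replicate 2, 61.8% overlapped neonatal replicate 2 and 32.9% its own replicate, and of those of neonatal replicate 2, 65.2% overlapped E14.5 replicate 2 and 33.8% its own replicate. For the first replicates these shares were 44.0% against 38.7% at E14.5 and 43.8% against 37.5% in neonatal CMCs. Of the distal peaks of adult replicate 2, 49.2% overlapped E14.5 replicate 2, 37.0% E14.5 replicate 1 and 24.4% its own replicate. These overlaps also depend on list size: E14.5 replicate 2 held 21914 distal peaks, E14.5 replicate 1 held 18631 and adult replicate 1 held 8038. The source of either feature was not tested.

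Distal peaks were found again in the other replicate less often than other autosomal peaks at each point. By an overlap of at least 1 bp, 38.7% and 32.9% of distal peaks were shared at E14.5, against 43.6% and 42.2% of other peaks. In neonatal CMCs 37.5% and 33.8% were shared, against 49.3% and 42.9%, and in adult CMCs 27.8% and 24.4%, against 45.0% and 37.8%. In TAC, where the displacement touches each overlap, 17.2% and 9.62% were shared, against 21.4% and 22.9%. By this overlap, distal peaks were below other peaks in all 8 lists. The mean difference was -10.4 percentage points ± 3.58 (SD, n = 4 points), and the exact sign-flip test over the points gave p = 0.13, two-sided, which is the smallest it can give. When the overlap had to cover at least 50% of both peaks, the mean difference shrank to -3.22 percentage points. E14.5 replicate 1 then went the other way, with 32.6% of its distal and 32.3% of its other peaks shared. In every other list distal peaks stayed below. The part of peak width in these shares was not tested. When peaks up to 1 kb apart counted as shared, distal peaks of the TAC lists reached 33.2% and 18.8%, against 40.6% and 41.7% of other peaks. Peaks found in no other list made up 60.1% of the distal peaks of TAC replicate 2 and 17.9% to 28.1% of those of the other lists.

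Restricting each list to peaks found in both replicates brought the TAC lists together. The distal share of such peaks was 12.9% and 12.9% among E14.5 lists, 10.9% and 11.1% among neonatal, 4.93% and 5.01% among adult and 6.72% and 6.60% among TAC lists. Values of a point are then not independent, since both replicates hold the same regions, and this alternative keeps only the peaks of TAC replicate 2 that reach into those of TAC replicate 1.

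Joined across lists, distal peaks made 60506 regions, of which 55.1% were found in 1 list, 20.7% in 2 and 0.544% in all 8. For the 336814 other regions these shares were 45.4%, 19.5% and 1.86%. Regions found only in TAC replicate 2, the displaced list, made up 15.3% of all distal regions (9276) and 10.3% of other regions. The shares found in 1 list include these. Without TAC replicate 2, 499 distal regions were in all other 7 lists. Of 3468 distal regions found in all 4 E14.5 and neonatal lists, 1398 (40.3%) were in neither adult list and 760 (21.9%) in both. Of the 27128 other regions of that kind, 21.6% were in neither adult list and 43.8% in both. In the opposite direction, 281 distal regions were in both adult lists and in no E14.5 or neonatal list. Regions are counted once per set of lists, so these counts have no replicates and no test.

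The regions that differed between points also differed in sequence, a measure that their choice did not use. Regions found at E14.5 and in neonatal but not in adult CMCs held 0.722 CpG per 100 bp and were 47.6% soft-masked, and 22.7% of them lay more than 500 kb from a TSS. Regions found at all of these points held 1.05 CpG per 100 bp and were 38.9% soft-masked, and 9.47% lay that far. Regions of both adult lists and no E14.5 or neonatal list held 1.42 CpG per 100 bp and were 18.3% soft-masked, and 7.12% lay that far.

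Tandem repeats, as printed above for 2 regions, were counted after those sequences were seen. A window around the centre, as wide as the commonest peak, was called a tandem repeat when at least 60% of its bases matched themselves at some shift of 2 to 100 bp. Of 67240 windows spaced across distal sequence, 0.360% were tandem repeats. Of distal regions, 1.59% were on tandem repeats when found in 1 list, 4.78% when found in 2, 7.66% when found in 4, 10.3% when found in 7 and 13.1% (43 of 329) when found in 8. The share was thus higher among regions that more lists held, from 1 to 8 lists, with 1 step down at 5 lists (7.30%). Of the 281 adult regions absent from the E14.5 and neonatal lists, 0 were on tandem repeats, which allows a share of up to 1.07%. Of the regions in all 4 E14.5 and neonatal lists, 37.3% of 359 with a tandem repeat and 40.7% of 3109 without one were in neither adult list.

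By list, 4.20% and 8.36% of distal peaks were on tandem repeats among E14.5 lists, 5.13% and 9.33% among neonatal, 3.61% and 9.86% among adult and 4.47% and 1.07% among TAC lists. Replicate 2 had the higher share at every point but TAC, and TAC replicate 2 the lowest of all lists. Other autosomal peaks, of which 1 in 5 was read, had 0.940% to 5.28%. The share of distal peaks was higher in 7 of 8 lists, by 3.14 percentage points ± 1.92 (SD, n = 8 lists; exact sign-flip test, two-sided, p = 0.0156). Without tandem repeats the distal share of peaks was 14.0% and 15.5% among E14.5 lists, 13.5% and 13.1% among neonatal, 7.55% and 7.10% among adult and 7.997% and 14.4% among TAC lists.

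**Figure D3:**
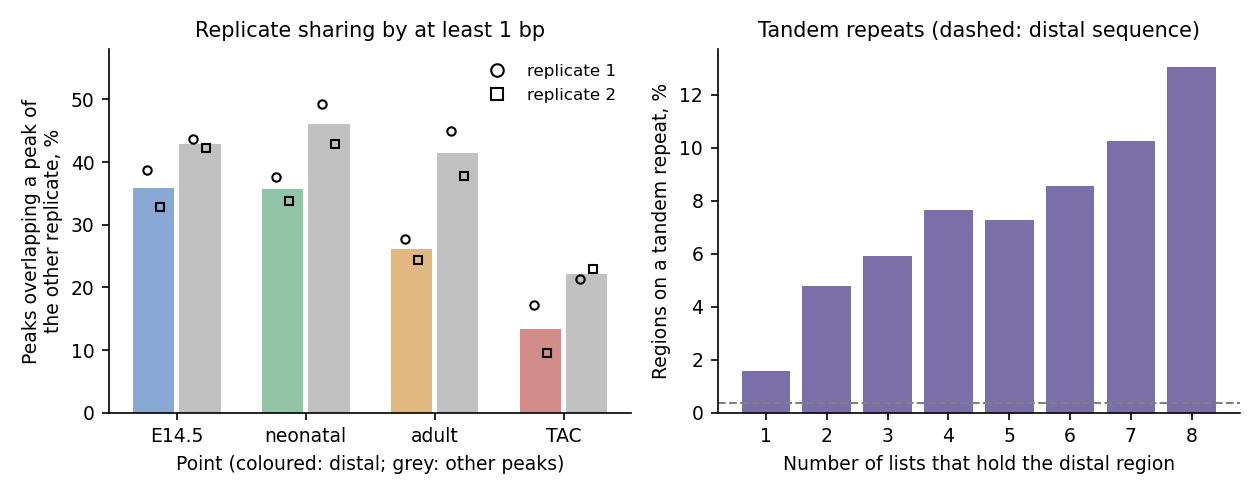
Left, peaks that overlap a peak of the other replicate by at least 1 bp, in %, with bars at the mean of both replicates, coloured for distal and grey for other autosomal peaks, and circles and squares for the replicates. Right, distal regions on a tandem repeat, in %, by the number of lists that hold the region, from 1.59% in 1 list to 13.1% in 8, with the dashed line at 0.360% for windows across distal sequence.

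In base composition and width, distal peaks differed from other autosomal peaks in the same direction in every list for 9 of 10 features. Mean CpG was 0.936 per 100 bp in distal and 1.49 in other peaks, a difference of -0.55 ± 0.0572 (SD, n = 8 lists), and lower in 8 of 8 lists. The soft-masked share was 35.6% against 23.4%, higher in 8 of 8 lists, and the mean width 600.2 bp against 727 bp, lower in 8 of 8. For each of these the exact sign-flip test over lists, two-sided, gave p = 0.00781, the smallest it can give (adjusted p = 0.00868 over 10 features). The rule selects sequence that is itself poorer in CpG and richer in repeats than the autosomes as a whole. For these 2 features the test therefore cannot tell the peaks from the sequence in which they lie. Distal peaks were richer in CpG than distal sequence, with 0.685 to 1.12 per list against 0.608. Their soft-masked share was 29.1% to 43.1% per list, against 39.3% of distal sequence. The lowest CpG value, 0.685, was that of TAC replicate 2, and the adult lists had the highest, 1.11 and 1.12.

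Words of 4 transcription factor motifs were counted on both strands of the same window around each centre, as a description of the sequence. The GATA word, AGATAA, was in 27.1% of distal and 23.2% of other peaks and in 33.6% of windows across distal sequence. The MEF2 word, CTANNNNTA, was in 42.1% and 39.1% of peaks and in 54.2% of distal windows, and was more frequent in distal than in other peaks in 7 of 8 lists. The TBX word, AGGTGT, was in 23.8% and 26.4% of peaks and in 20.7% of distal windows. The CTCF word, AGGGGGC, was in 5.18% and 6.49% of peaks and in 2.59% of distal windows. Between distal and other peaks all 4 differed (exact sign-flip tests, adjusted p from 0.00868 to 0.0156). Windows across all autosomes held the GATA word in 29.8%, MEF2 in 50.7%, TBX in 23.5% and CTCF in 3.94%. For all 4 words distal windows differed from these in the same direction as distal from other peaks. The tests therefore cannot tell the peaks from the sequence that the rule selects. GATA and MEF2 words were thus less frequent in distal peaks than in distal sequence, and TBX and CTCF words more frequent, an order that G+C content shares: 45.3% in distal peaks and 39.3% in distal sequence.

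Distal peaks lay in clusters at all points. The share with another distal peak of the same list within 50 kb, centre to centre, was 89.6% and 92.6% among E14.5 lists, 90.0% and 91.6% among neonatal, 73.9% and 80.3% among adult and 75.6% and 86.3% among TAC lists (exact permutation test, p = 0.143). This share rests on the number of distal peaks. When 8038 were drawn from each list, the order turned: it was 69.1% and 70.0% among E14.5 lists, 68.8% and 69.3% among neonatal, 73.9% and 78.0% among adult and 74.2% and 69.2% among TAC lists (exact permutation test, p = 0.219). The density of distal peaks within 50 kb of a distal peak, relative to their mean density, was 1.51 and 1.52 among E14.5 lists, 1.45 and 1.55 among neonatal, 2.87 and 3.397 among adult and 2.65 and 1.40 among TAC lists (exact permutation test, p = 0.143). On both measures that allow for the number of peaks, the adult lists and TAC replicate 1 were above the other 5 lists.

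**Figure D4:**
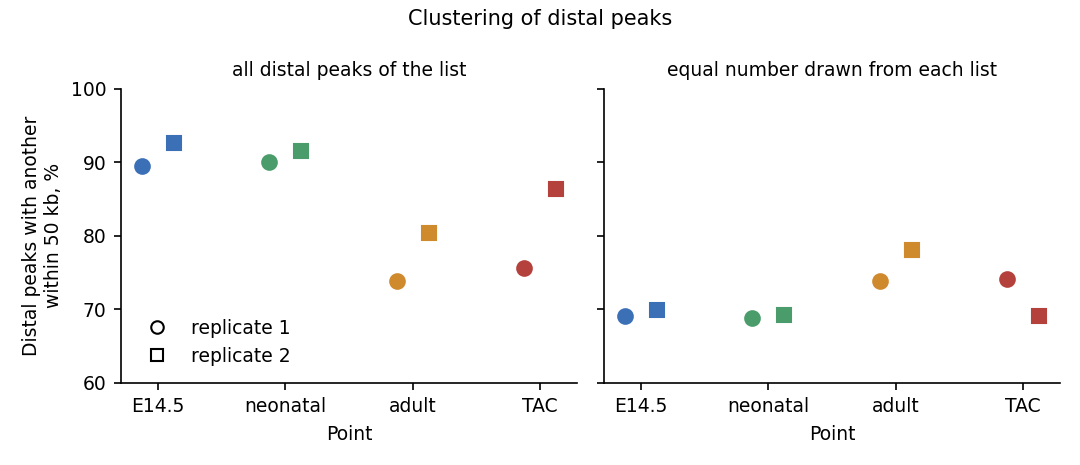
Share of distal peaks with another distal peak of the same list within 50 kb, in %, for all distal peaks of a list (left) and for 8038 drawn from each (right), with circles for replicate 1 and squares for replicate 2. The axis starts at 60%. On the left the adult lists, at 73.9% and 80.3%, lie below all E14.5 and neonatal lists, and with TAC replicate 1 the highest on the right, at 73.9% and 78.0%.

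Chains of distal regions no more than 50 kb apart were made from the 12194 distal regions found in both replicates of at least 1 point. There were 4546 chains, of which 2300 had 1 region and 582 had at least 5, and these 582 held 46.5% of the regions. The largest by mean number of peaks was chr5:118780683-119570440, a 790 kb stretch between *Med13l*, which encodes a Mediator subunit, and *Tbx3*, a transcription factor of the cardiac conduction system. It held 92 and 126 distal peaks among E14.5 lists, 88 and 118 among neonatal, 53 and 76 among adult and 52 and 66 among TAC lists. Both adult and both TAC lists lay below all E14.5 and neonatal lists there.

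The second, chr4:152578522-153349628 between *Nphp4* and *Ajap1*, held 66 and 103, 43 and 83, 24 and 49, and 35 and 56 peaks at the 4 points in the same order, and the adult lists overlapped the neonatal ones. The third, chr5:111520555-111893462 between the transcriptional regulator *Mn1* and the lens crystallin gene *Cryba4*, held 67 and 63, 60 and 56, 51 and 55, and 45 and 44. Per 1000 autosomal peaks the adult lists, with 0.492 and 0.455, lay within the range of the earlier lists (0.513 and 0.459 at E14.5, 0.445 and 0.370 in neonatal CMCs). The fourth, chr13:44053196-44422635, lay between *Cd83* and *Jarid2*, which encodes a component of Polycomb complexes. It held 47 and 45, 46 and 45, 50 and 41, and 42 and 35. Per 1000 autosomal peaks, adult replicate 1 had 0.482 there, above each E14.5 and neonatal list (0.298 to 0.360), and adult replicate 2 had 0.339, within their range. The fifth, chr13:51953885-52347529, lay 107 kb from *Gadd45g*, a stress-response gene linked to DNA demethylation. It held 48 and 56, 47 and 48, 33 and 50, and 28 and 29.

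To compare points along the genome, distal stretches and the sequence between them were divided into segments of at most 1 Mb. Those with at least 100 kb of known bases and a mean of at least 2 peaks were tested, 4216 in all, of which 1526 were distal and held 67.7% of the distal peaks. Segment values are log2 of peaks per 1000 autosomal peaks of the list with 0.5 peak added, which understates changes of segments with few peaks. The median log2 difference of distal segments was -1.16 for adult minus neonatal, -1.31 for adult minus E14.5, -0.10 for neonatal minus E14.5 and 0.69 for TAC minus adult. For the other segments it was -0.09, -0.11, 0.00 and 0.03. A shift of this kind follows from the lower share of distal peaks in the adult lists.

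Counted by replicates that do not overlap, 1082 distal segments (70.9%) were lower in adult than in neonatal CMCs, against 49.4% of all segments tested, and 32 (2.1%) were higher, against 19.9%. Against E14.5, 1159 (76%) were lower in adult CMCs, against 53.1% of all segments, and 28 (1.83%) higher, against 21.1%. In TAC, 483 (31.7%) were higher than in adult CMCs, against 23.8%, and 61 (4%) lower, against 11.8%. A count with 1 list of the points compared left out sets a single list against both lists of the other point. That condition is easier to meet in either direction. Leaving out 1 list of the points compared gave 78 to 106 higher in adult than in neonatal CMCs and 57 to 81 higher than at E14.5. For TAC, the higher count was 1237 without TAC replicate 1 and 952 without adult replicate 1. The lower count was 413, beside 534 higher, without TAC replicate 2, the displaced list, and it was 109, 122 and 197 without TAC replicate 1, adult replicate 1 and adult replicate 2. Between neonatal and E14.5 CMCs, 309 (20.2%) were lower and 131 (8.58%) higher, against 18.5% and 15.8% of all segments. Without E14.5 replicate 1, E14.5 replicate 2, neonatal replicate 1 and neonatal replicate 2 in turn, 709, 529, 626 and 590 were lower and 300, 399, 296 and 409 higher. When segments were scaled per 1000 distal peaks, so that the lower number of distal peaks was set aside, 500 distal segments were lower and 261 higher in adult than in neonatal CMCs, with a median of -0.31. On that scale TAC was higher than adult in 337 and lower in 199, and neonatal was higher than E14.5 in 201 and lower in 207, with medians of 0.19 and 0.03.

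limma, with the spread shared over the 8 samples and Benjamini-Hochberg adjustment over the 4216 segments, called 16 distal segments (1.05%) lower in adult than in neonatal CMCs, against 0.546% of the segments of both kinds. It called 33 (2.16%) lower in adult CMCs than at E14.5, against 1.09%, and 7 (0.459%) higher in TAC than in adult CMCs, against 0.237%. Between neonatal and E14.5 CMCs limma called 0 (0% of all), with 6 higher and 23 lower at an unadjusted p under 0.05. With the replicate number as a block, limma called 0 distal segments in each of these contrasts. The counts without the block depended on single lists. For adult minus neonatal they were 0 without any 1 of the 4 E14.5 and neonatal lists or without adult replicate 2, 76 without adult replicate 1, 253 without TAC replicate 1 and 248 without TAC replicate 2. For adult minus E14.5 they were 0 without any 1 of the E14.5 and neonatal lists, 21 without adult replicate 2, 119 without adult replicate 1, 410 without TAC replicate 1 and 418 without TAC replicate 2. For TAC minus adult they were 114 without TAC replicate 1 and 0 without any other list. Since the number of animals behind each replicate is not given, p-values measure the spread between these samples.

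The distal segments with the most regions kept at all points were short stretches. The most regions found in both replicates of all 4 points, 6, lay in chr8:121264575-121418626, 123 kb from *1700018B08Rik* and 137 kb from *Foxl1*, a forkhead transcription factor of mesenchyme. It held 35 and 35 peaks among E14.5 lists, 33 and 39 among neonatal, 24 and 29 among adult and 27 and 18 among TAC lists. With 4 such regions, chr8:125265144-125385883, 107 kb from *Sipa1l2*, held 25 and 23, 30 and 28, 17 and 32, and 30 and 21 peaks, so that the adult and TAC lists overlapped the earlier ones. With 3 each followed chr1:190270828-190391828 beside *Prox1*, a homeodomain regulator of heart and lymphatic development, chr12:79949492-80013012 beside *Zfp36l1*, which encodes an mRNA decay factor, and chr5:111587154-111658693 in the cluster of *Mn1*. The *Prox1* segment held 16 and 21, 21 and 17, 16 and 15, and 16 and 13 peaks, and the *Zfp36l1* segment 14 and 16, 13 and 15, 14 and 15, and 12 and 11. The *Mn1* segment held 16 and 11, 18 and 15, 11 and 14, and 13 and 10.

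Among distal segments of at least 200 kb, peaks were densest in chr6:84211061-84412941, with a mean of 131 peaks per Mb over the 8 lists. This segment lay 105 kb from *Dysf* and 174 kb from *Cyp26b1*, whose product breaks down retinoic acid. The median distal segment of at least 100 kb had 16.5. The densest segment held 23 and 28 peaks among E14.5 lists, 24 and 28 among neonatal, 22 and 31 among adult and 32 and 24 among TAC lists. The next, chr17:9929822-10141739, 178 kb from the RNA-binding protein gene *Qk*, had 121 per Mb, with 22 and 27, 24 and 34, 22 and 26, and 27 and 23 peaks. In numbers of peaks the lists of all points overlapped in both segments, but per 1000 autosomal peaks of the list both adult lists lay above both E14.5 lists. By contrast, chr8:115352713-115575575, 131 kb from the transcription factor gene *Maf*, held 22 and 32, 21 and 31, 9 and 15, and 9 and 16, and both adult and both TAC lists lay below the others. So did both adult lists in chr8:11942706-12176931 beside *Tex29*, with 34 and 23, 24 and 24, 11 and 13, and 11 and 11 peaks. The fifth, chr4:152859294-153148647, lay in the cluster between *Nphp4* and *Ajap1* and held 29 and 40, 18 and 36, 13 and 17, and 10 and 23.

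In the distal segments with the largest differences that limma called lower in adult CMCs, the adult lists held no peak at all. In chr4:66927552-67555041, beside *Tlr4*, a receptor of innate immunity, peaks numbered 12 and 13 among E14.5 lists, 13 and 12 among neonatal, 0 and 0 among adult and 3 and 6 among TAC lists. The log2 difference was -4.35 ± 0.322 (SE) for adult minus neonatal (limma, adjusted p = 0.0258), -4.44 for adult minus E14.5 (limma, adjusted p = 0.0143) and 3.34 for TAC minus adult (limma, adjusted p = 0.0337). In chr5:18062571-18260412 between the G protein genes *Gnat3* and *Gnai1* there were 5 and 5, 11 and 6, 0 and 0, and 5 and 5, with -3.76 ± 0.344 (SE) for adult minus neonatal (limma, adjusted p = 0.0258) and 3.54 for TAC minus adult (limma, adjusted p = 0.0337). Fitted values against lists at 0 depend on the 0.5 peak added and give no bound. With the replicate number as a block, limma called no distal segment in any contrast, these and those named next included.

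The remaining segments named by size had few peaks. In chr3:124681092-125304028 beside *Ndst4*, a heparan sulphate sulphotransferase, there were 8 and 11, 9 and 10, 0 and 0, and 3 and 12 (adult minus E14.5, log2 difference -4.05 ± 0.566 (SE), limma adjusted p = 0.0460). In chr11:31169847-31270060 beside *Stc2*, which encodes a secreted glycoprotein, there were 4 and 3, 1 and 2, 0 and 0, and 3 and 5 (TAC minus adult, 3.22 ± 0.333 (SE), limma adjusted p = 0.0361). No distal segment was called higher in adult CMCs with all 8 samples fitted. The segment that came nearest among those whose replicates do not overlap was chr12:32581514-32720334 beside *Nampt*, an enzyme of NAD synthesis. It held 2 and 5 peaks among E14.5 lists, 2 and 3 among neonatal, 8 and 10 among adult and 6 and 6 among TAC lists, with a log2 difference of 2.03 ± 0.369 (SE) for adult minus neonatal (limma, adjusted p = 0.0683).

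The other segments named because their replicates did not overlap held 17 to 43 peaks over the 8 lists, and none passed limma. Adult lists were above the neonatal ones in chr15:90368445-90487480 near *Alg10b* (3 and 4, 0 and 1, 2 and 3, and 0 and 4 peaks) and in chr5:89239657-89357897 near *Gc*, and above the E14.5 ones in chr11:31470062-31571861 near *Bod1* and chr1:105127781-105255805 near *Rnf152*. The *Alg10b* segment was also among the largest differences between E14.5 and neonatal CMCs, where the neonatal lists were lower, as they were in chr4:5898031-6091104 near *Ubxn2b* (5 and 5 in E14.5 lists against 0 and 3) and chr6:81446258-81638310 near *Gcfc2*. Neonatal lists were higher than E14.5 in chr15:61774452-61885340 beside *Myc*, the growth regulator (2 and 1 at E14.5, 5 and 6 in neonatal), chr9:82263487-82439413 near *Irak1bp1* and chr16:84057453-84294534 near *Mrpl39*. TAC lists were below the adult ones in chr5:83455196-83648822 near *Tecrl* (3 and 1 in adult, 0 and 0 in TAC), chr16:77169054-77298062 near *Usp25* and chr2:23672133-23949065 near *Hnmt*. The *Hnmt* segment held 1 and 4 peaks in adult and 0 and 1 in TAC lists, again a tie that only the scaling separated.

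Flanking genes were taken as the protein-coding genes whose TSSs bound a gap that holds distal sequence. There were 1762 such gaps with a mean of 0.370 Mb of distal sequence, flanked by 2897 of 20558 genes. Lists of genes were then described by the gaps beside them, on the scale of distal peaks per Mb per 100000 peaks. Over all gaps this density was 21.9 and 24.5 among E14.5 lists, 21.3 and 21.1 among neonatal, 11.9 and 11.6 among adult and 12.6 and 22.1 among TAC lists, a ratio of adult to E14.5 of 0.507. Gaps with at least 0.1 Mb and a mean of at least 2 peaks numbered 982, and 916 of them were lower in adult CMCs than at E14.5. The median log2 ratio of adult to E14.5 over the 982 was -1.09.

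Of 31 cardiac transcription factors, 25 flanked distal sequence, in 34 gaps. Their density was 28.8 and 34.1 among E14.5 lists, 28.04 and 26.9 among neonatal, 17.1 and 17.9 among adult and 16.0 and 29.3 among TAC lists, with an adult to E14.5 ratio of 0.557. It was above that of all gaps in each list. So were the densities beside transcription factors of other lineages, growth factor signalling genes and fibroblast and endothelial genes, given below. Gaps beside the cardiac transcription factors held 15 of the 329 regions of all 4 points, or 0.881 per Mb against 0.505 over all gaps. Of these, 7 lay beside *Tbx3*, in 0.696 Mb of distal sequence. Growth factor signalling genes had 0.772 per Mb and the other lists described below 0 to 0.496. In 26 of 29 gaps beside the cardiac transcription factors adult CMCs were lower than E14.5, against 916 of 982 of all gaps. The median log2 ratio was -0.80. Of 49 segments tested beside these genes, 38 were lower in adult CMCs than at E14.5 without overlap of the replicates, a share near the 76.0% of all distal segments, and limma called 0 of them. Members differed. Beside *Nr2f1*, which encodes a nuclear receptor, peaks numbered 38 and 39 among E14.5 lists, 56 and 35 among neonatal, 13 and 4 among adult and 9 and 38 among TAC lists. Beside *Gata6*, which encodes a zinc-finger factor of heart and endoderm, they numbered 23 and 32, 33 and 32, 24 and 29, and 25 and 28, and the E14.5, neonatal and adult lists overlapped, also per 1000 autosomal peaks. Beside *Tbx20*, a T-box gene of the working myocardium, peaks numbered 13 and 13, 16 and 12, 11 and 13, and 6 and 7. Per 1000 autosomal peaks the adult lists had 0.106 and 0.108 there, above both E14.5 lists (0.0996 and 0.0947) and between the neonatal ones (0.119 and 0.0793). Beside *Mef2c*, a factor of muscle differentiation, peaks numbered 38 and 46, 45 and 44, 12 and 9, and 13 and 34.

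Transcription factors of other lineages (28 of 36 genes flanking, 38 gaps) had densities of 26.2 and 35.2 among E14.5 lists, 24.3 and 27.56 among neonatal, 12.7 and 15.2 among adult and 15.0 and 27.8 among TAC lists, a ratio of adult to E14.5 of 0.453. Of 59 segments, 40 were lower in adult CMCs than at E14.5 without overlap and limma called 2 lower, against 76% and 2.16% of all distal segments, and the median log2 ratio over 32 gaps was -1.26. Beside *Sall1*, a zinc-finger regulator of kidney and limb, there were 59 and 68 peaks among E14.5 lists, 45 and 60 among neonatal, 25 and 35 among adult and 32 and 34 among TAC lists.

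Neural cell adhesion genes flanked the longest gaps, 81 gaps of 1.49 Mb on average beside 51 of 54 genes. Their density was below that of all gaps in each list, with 13.4 and 15.1 among E14.5 lists, 13.7 and 13.4 among neonatal, 5.12 and 3.87 among adult and 5.16 and 14.3 among TAC lists. The ratio of adult to E14.5 was 0.316 and the median log2 ratio -1.77 over 74 gaps. Of these, 73 were lower in adult CMCs, against 916 of 982 of all gaps. Of 228 segments, 198 were lower in adult CMCs than at E14.5 without overlap, and limma called 5 lower, against 76% and 2.16% of all distal segments. Beside the protocadherin gene *Pcdh7* there were 116 and 146 peaks among E14.5 lists, 107 and 122 among neonatal, 27 and 26 among adult and 31 and 99 among TAC lists. Since the ratio of adult to E14.5 also went down with distance over all intergenic sequence, the part of distance in these values cannot be told apart from that of the genes.

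Cardiac muscle and ion channel genes (13 of 34 flanking, 17 gaps) had densities of 18.4 and 21.3 among E14.5 lists, 20.4 and 21.1 among neonatal, 9.52 and 9.20 among adult and 10.5 and 19.5 among TAC lists, with a median log2 ratio of adult to E14.5 of -1.09 over 11 gaps and 16 of 21 segments lower without overlap, near the 76% of all distal segments. Beside *Gja1*, the gap junction gene of working myocardium, there were 32 and 40 peaks, 38 and 40, 22 and 22, and 22 and 33. Beside *Ryr2*, the calcium release channel, there were 22 and 26, 30 and 27, 10 and 8, and 13 and 19. Growth factor signalling genes (31 of 38 flanking, 38 gaps) had 25.8 and 27.2 among E14.5 lists, 24.9 and 23.5 among neonatal, 13.9 and 13.8 among adult and 16.3 and 22.4 among TAC lists, with a median of -1.07 over 29 gaps and 25 of 34 segments lower without overlap, again near 76%. Beside *Ednra*, the endothelin receptor gene, there were 17 and 15 peaks, 19 and 17, 16 and 18, and 12 and 15. Per 1000 autosomal peaks these were 0.130 and 0.109, 0.141 and 0.112, 0.154 and 0.149, and 0.115 and 0.140, so that both adult lists lay above all E14.5 and neonatal lists. Beside *Bmp2* there were 18 and 40, 24 and 27, 3 and 7, and 6 and 18.

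Fibroblast and endothelial genes (10 of 18 flanking, 11 gaps with 3.105 Mb in all) had the highest density of the lists at E14.5, 41.7 and 41.5, with 33.4 and 34.1 among neonatal, 17.1 and 13.9 among adult and 19.1 and 27.98 among TAC lists. Their median log2 ratio of adult to E14.5 was -1.38 over 8 gaps, of which 8 were lower in adult CMCs, against 916 of 982 of all gaps. Of 11 segments, 10 were lower without overlap and 1 was called by limma, against 76% and 2.16% of all distal segments. Beside *Col3a1*, which encodes a fibroblast collagen, there were 19 and 9 peaks among E14.5 lists, 5 and 10 among neonatal, 1 and 1 among adult and 2 and 2 among TAC lists. Beside *Cdh5*, the endothelial cadherin gene, there were 55 and 62, 57 and 56, 22 and 18, and 23 and 26. Whether other cell types of the preparations added to these peaks was not tested. Olfactory and vomeronasal receptor genes, 31 of 1452 of which flanked 2.02 Mb, had 11.8 and 9.74 among E14.5 lists, 14.3 and 8.84 among neonatal, 3.82 and 4.51 among adult and 3.32 and 15.7 among TAC lists, on 7 to 39 peaks per list, and 3 of 3 segments were lower in adult CMCs than at E14.5 without overlap, too few to set against the 76%.

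**Figure D5:**
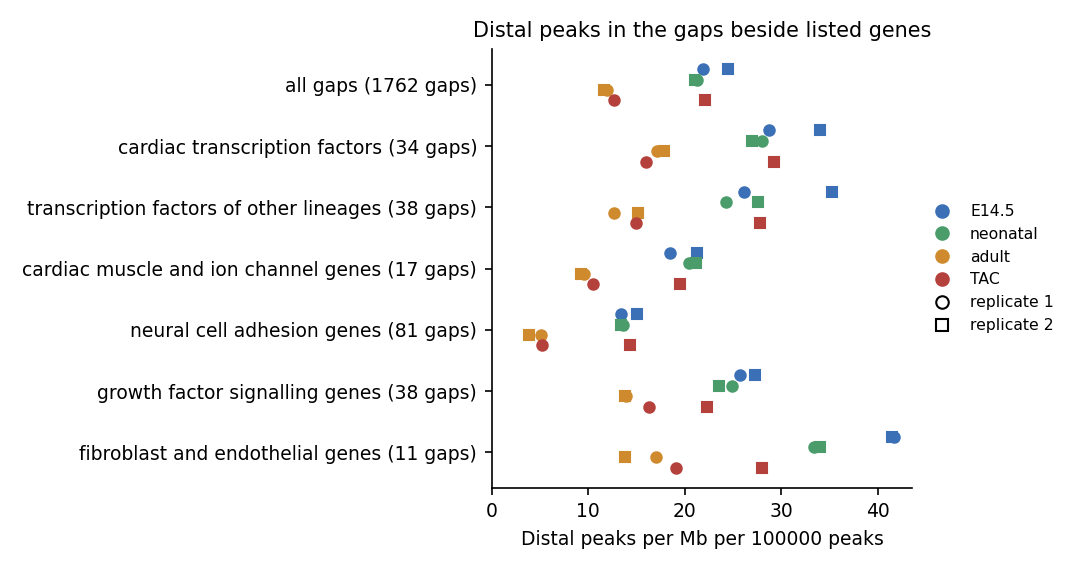
Distal peaks per Mb of distal sequence per 100000 peaks of the list, for all gaps and for gaps beside 6 lists of genes, with colours for the points, circles for replicate 1 and squares for replicate 2. Adult lists lie left of all E14.5 and neonatal lists in each row, from 3.87 beside neural cell adhesion genes to 17.9 beside cardiac transcription factors, and TAC replicate 2 lies right of TAC replicate 1 in each row.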

How the data were processed

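The 8 samples with a peak list were grouped by point, and input and sh-control samples were not analysed here. Per the study's methods, the authors mapped reads to mm10 (BWA 0.7.4-r385), used Picard for duplicates, dropped reads that mapped poorly and ran HOMER in histone mode on each replicate, with input as control. The deposited lists hold positions, and their score column is 1 in each row, so peaks could not be ranked by score and no interval that needs depth is given. Dropping poorly mapped reads lowers the chance of a peak on repeats.

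Transcripts (117782) and TSSs (55972, of 20558 protein-coding genes) were those of RefSeq on GRCm38, the assembly of mm10. Overlap, clustering and permutation code was checked on simulated data, overlap against bedtools 2.31.1. Tests were exact permutation tests over samples, lists or points, and limma 3.58.1 in R 4.3.3 over all segments. Other tools were Python 3.11.15, numpy 2.4.6, pandas 2.3.3, scipy 1.17.1 and matplotlib 3.10.9. Alternatives were other distances, annotations, overlaps, windows, peak subsets, pseudocounts and filters, each replicate left out and a replicate block. Segments named are the 5 densest of at least 200 kb, the 5 with the most regions at all points and, for each contrast, up to 3 of the largest rises and 3 falls among those called or, with none called, not overlapping; clusters named are the 5 largest. No sequence of chromosome 18 is printed, and 1 segment that this rule selects is not reported here. Genes named beside them are flanks or, for the gene lists, examples chosen after their values were seen. The members, the gene lists and this rule were chosen with earlier results of these data known.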

Additional observations from a re-analysis of the deposited data

How the results depend on the processing

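The lower distal share of peaks in adult CMCs kept its direction under all alternatives run for adult minus E14.5 and for adult minus neonatal, and so did the higher share in TAC than in adult CMCs. With peaks found in both replicates the differences were -7.92, -6.05 and 1.69 percentage points for adult minus E14.5, adult minus neonatal and TAC minus adult. Both values of a point then rest on the same regions, so the permutation test says nothing there. In the first 50% of the rows of each list the distal share was lower than in the whole list. It was 12.3% and 12.7% among E14.5 lists, 11.1% and 9.86% among neonatal, 5.18% and 5.62% among adult and 5.68% and 12.6% among TAC lists. What the order of the rows stands for was not tested. Without peaks on tandem repeats, an alternative chosen after seeing the data, adult minus neonatal was -5.98. Leaving out 1 replicate gave -8.30 to -6.61, -6.21 to -6.04 and 0.556 to 6.75, the lowest of the last without TAC replicate 2, with an exact permutation p = 0.00952 without TAC replicate 2 and 0.0667 to 0.267 without any other list. The share of distal peaks with another within 50 kb reversed when an equal number of distal peaks was drawn, to 6.44, 6.90 and -4.29 percentage points for the same contrasts; a share of this kind goes up with the number of peaks. TAC minus adult also reversed at 20 kb (-0.38) and without TAC replicate 2 (-1.53), and leaving out 1 replicate gave -17.2 to -10.7, -16.9 to -10.4 and -1.53 to 9.20. Differences in CpG, soft-masked share and width kept their direction and their side of the threshold in the alternatives run for them. The mean difference in replicate sharing kept its direction and ranged from -15.6 to -3.22 percentage points. It was smallest when the overlap had to cover at least 50% of both peaks, where E14.5 replicate 1 reversed. The test of this difference over 4 points cannot pass the threshold.

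limma's counts of distal segments were 16 lower for adult minus neonatal, 33 lower for adult minus E14.5 and 7 higher for TAC minus adult. With the replicate number as a block they were 0, 0 and 0. The deviations of same-numbered lists correlated at 0.355 for E14.5 with neonatal, 0.137 for E14.5 with adult and 0.152 for neonatal with adult. With TAC they correlated at 0.140 for E14.5, -0.0314 for neonatal and -0.0993 for adult. The main fit did not pair the samples by number, and whether the numbers pair them is not known here. Per 1000 distal peaks the counts were 1, 1 and 0, with a pseudocount of 1 peak 0, 62 and 0, with a mean of at least 5 peaks 1, 80 and 0, and without TAC, chosen after seeing the data, 253 and 419 for the first contrasts. Leaving out 1 replicate gave 0 to 253, 0 to 418 and 0 to 114. Segments without overlap numbered 500 and 493 lower in adult CMCs (against neonatal and against E14.5) per 1000 distal peaks. With a mean of at least 5 peaks, which tests fewer segments, they numbered 670 and 709 lower, 301 higher in TAC and 188 lower in neonatal than in E14.5 CMCs. Leaving out 1 replicate gave 1051 to 1266, 1130 to 1313, 471 to 1237 and 302 to 709. Where the list left out belonged to a point compared, a single list is set against both lists of the other point. Non-overlap is then easier to meet in either direction. What else moved the counts was not tested. Read depth is unknown, and a list with fewer peaks can miss weak distal peaks.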

Other observations

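Distal peaks were spread unevenly over the autosomes. Chromosome 13, with 27.7% of its known bases in distal sequence, had the highest distal share in both adult lists, 12.8% and 13.0% of its peaks, with 19.2% and 20.9% at E14.5. Chromosome 19, with 17.9% of its bases distal, had the lowest, 3.69% and 3.21% in adult CMCs and 7.77% and 9.70% at E14.5. On chromosome 3, where distal sequence had its highest share, 35.5%, the distal share of peaks was 11.3% and 10.1% in adult CMCs and 19.5% and 21.2% at E14.5. On each of these chromosomes both adult lists lay below both E14.5 lists.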
